A study of Mus musculus with 8 samples.

Results

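The genes described here are 9 transcripts of alternatively activated macrophages, namely Chil3, Retnla, Mrc1, Mgl2, Clec10a, Cd163, Folr2, Lyve1 and Trem2, among 25006 gene identifiers in each library. They were selected from results of these same libraries, with all 4 group comparisons already known. Their levels and differences are therefore a description, and whether a gene of the 9 passed a threshold supports nothing by itself. All 9 were found by symbol and all 9 passed the filter on low counts, which kept 15310 genes. RNA was sequenced from tumors of 4T1, a mammary carcinoma line from Balb/c mice widely used to model triple-negative disease, after injection into the fat pad and growth for up to 20 days. There were 4 groups of 2 libraries. CD95 wild-type tumors came from the parental line (replicate 1) and from a line with stable vCas9 expression (replicate 2). CD95 knockout tumors came from the CRISPR/Cas9 clones 54 (replicate 1) and 69 (replicate 2). Each of these lines was grown once in NSG mice, which have no working Il2rg, no mature lymphocytes and no NK cells but keep myeloid cells, and once in immunocompetent Balb/c mice. The 2 libraries of a group are thus different lines, and each knockout line is 1 clone whereas neither wild-type line is said to be one, so that clonal origin and CD95 loss cannot be told apart. The age and sex of the hosts are not given in the sources used here, nor is whether a library held 1 tumor or several.

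Library totals ranged from 8680070 to 19655945 counts, and 17463 to 18407 genes had at least 1 count. Levels are given as CPM, the usual scaling of counts to a common library size, here with TMM factors. Fas, which encodes CD95, was at 33.9 and 22.6 CPM in NSG wild type, 29.5 and 12.9 CPM in NSG knockout, 51.6 and 46.9 CPM in Balb/c wild type and 27.1 and 33.7 CPM in Balb/c knockout. Its knockout log2 fold change was -0.70 (edgeR adjusted p = 0.225, SE 0.36) in Balb/c and -0.42 (edgeR adjusted p = 0.628, SE 0.37) in NSG, so knockout status rests on the labels. The labels name the tumor line as the cell type, and the epithelial transcripts Epcam and Krt8 were read in every library, at 45.2 to 416.4 CPM and 156.1 to 1283 CPM.

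Macrophages take up states that depend on the signals around them. The cytokines IL-4 and IL-13 bind receptors that contain IL-4Rα, activate JAK kinases and the transcription factor STAT6, and switch on the program called alternative activation. Its products include secreted chitinase-like and resistin-like proteins, and lectins that bind sugars on glycoproteins, and in tumors these genes are widely used as markers of macrophages associated with repair and with suppression of T cells. Scavenger and folate receptors and LYVE1 mark tissue-resident macrophages in many organs, and TREM2, a receptor for lipids, marks lipid-laden macrophages in tumors and other tissues.

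The proximal promoters of Chil3, Retnla and Mgl2 are shown because these 3 genes had the largest log2 fold changes of the 9 between knockout and wild-type tumors in Balb/c. They are RefSeq sequences of build GRCm38.p6, written along the gene's strand and ending at the base before the gene starts in the GENCODE M21 annotation. Capitals mark matches to 3 motifs searched on both strands in the 250 bases before the RefSeq start, namely TTCNNNNGAA (the spacing that STAT6 prefers), TTCNNNGAA (the spacing of other STAT factors) and GAGGAA (the core bound by the macrophage factor PU.1). The lines below give chr3:106167565-106167814 on the minus strand for Chil3, chr16:48842359-48842550 on the plus strand for Retnla and chr11:70130107-70130328 on the plus strand for Mgl2.
Chil3: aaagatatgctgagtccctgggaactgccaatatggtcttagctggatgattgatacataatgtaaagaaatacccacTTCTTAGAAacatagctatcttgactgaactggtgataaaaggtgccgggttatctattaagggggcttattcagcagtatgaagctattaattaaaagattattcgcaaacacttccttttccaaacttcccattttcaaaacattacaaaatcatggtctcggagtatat
Retnla: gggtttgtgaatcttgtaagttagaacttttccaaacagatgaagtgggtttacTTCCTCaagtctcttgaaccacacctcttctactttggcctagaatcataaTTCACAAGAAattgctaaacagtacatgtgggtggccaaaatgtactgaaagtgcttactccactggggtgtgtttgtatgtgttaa
Mgl2: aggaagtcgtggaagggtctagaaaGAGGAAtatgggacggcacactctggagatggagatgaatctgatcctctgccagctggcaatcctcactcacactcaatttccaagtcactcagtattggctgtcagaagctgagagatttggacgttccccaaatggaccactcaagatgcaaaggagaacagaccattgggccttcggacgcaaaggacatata
Retnla alone among the 7 of the 9 genes with a promoter in the RefSeq table (not Clec10a or Lyve1) held the STAT6 spacing, as TTCACAAGAA with its first base at position -145 from the RefSeq start. Chil3 held TTCTTAGAA at -172. The PU.1 core began at -196 in Retnla, -225 in Mgl2 and -40 in Trem2, it occurred 3 times in Mrc1, and no match to any of the 3 motifs was found in the windows of Cd163 and Folr2. Among all 32851 promoter windows of 250 bases, 5.85% held the STAT6 spacing, 7.02% the shorter STAT spacing and 23.3% the PU.1 core. A match is a run of letters, not a measured binding site.

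The first comparison asked how tumors labelled CD95 knockout differed from wild-type tumors in immunocompetent mice. In Balb/c, 8 of the 9 genes were higher in both knockout libraries than in both wild-type libraries, and Lyve1 was lower in both. The mean level of Chil3 was 40.2-fold higher in knockout, that of Mgl2 10.8-fold, that of Retnla 8.001-fold, and those of the 5 other higher genes 2.51-fold to 4.71-fold. Over all genes, 32.9% were higher and 29.3% lower without overlap, and the 9 were selected with this contrast in view, so nothing is read from their count. The tumors are mixed tissue, in which more cells of a type and more RNA per cell cannot be told apart.

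Among secreted products, Chil3 (ENSMUSG00000040809, protein-coding, chr3:106147554-106167564, minus strand) encodes the chitinase-like protein Ym1. It was at 48.8 and 75.4 CPM in the Balb/c wild-type libraries, 3724 CPM in clone 54 and 1268 CPM in clone 69. Both knockout libraries lay far above all 6 other libraries of the study, the highest of which was at 91.0 CPM. The log2 fold change between knockout and wild type in Balb/c was 5.33 (SE 0.55). Of the 50-base words in Chil3 transcripts, 29.4% also occur in transcripts of other genes, mainly Chil4 and Gm6522, so a part of its reads can be shared with near-identical copies.

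Retnla (ENSMUSG00000061100, protein-coding, chr16:48842551-48844461, plus strand) encodes the secreted resistin-like molecule also called FIZZ1. It stood at 123.2 and 94.7 CPM in wild-type Balb/c tumors and at 985.9 and 757.0 CPM in clones 54 and 69, a log2 fold change of 3.0 (SE 0.55). The 2 clones were closer to each other for Retnla than for the other 7 genes that were higher.

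Of the C-type lectin receptors, Mrc1 (ENSMUSG00000026712, protein-coding, chr2:14229392-14332057, plus strand) encodes the mannose receptor CD206. Mrc1 was at 831.5 and 945.6 CPM in wild-type Balb/c tumors, 4569 CPM in clone 54 and 1494 CPM in clone 69, with a log2 fold change of 1.77 (SE 0.48). Mgl2 and Clec10a encode galactose-type lectins and are neighbours on chromosome 11 (ENSMUSG00000040950, chr11:70130329-70137550, and ENSMUSG00000000318, chr11:70156197-70170834, both protein-coding and on the plus strand). Mgl2 went from 22.5 and 38.9 CPM in wild type to 522.9 CPM in clone 54 and 142.7 CPM in clone 69, a log2 fold change of 3.44 (SE 0.62). Clec10a was at 23.8 and 23.0 CPM in wild type and at 89.2 and 59.7 CPM in clones 54 and 69, and its log2 fold change of 1.67 had the smallest SE of the 9 genes in this comparison, 0.22. Mgl2 and Clec10a share sequence, with 15.3% of the 50-base words of Mgl2 found in Clec10a, which makes the division of reads between them uncertain.

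Of the receptors of resident-type macrophages, Cd163 and Folr2 had positive log2 fold changes and Lyve1 a negative one. None of them passed by edgeR, and a difference between them was not tested. Cd163 (ENSMUSG00000008845, protein-coding, chr6:124304656-124330527, plus strand), the scavenger receptor for haemoglobin bound to haptoglobin, was at 318.8 and 257.6 CPM in wild-type Balb/c tumors, 1101 CPM in clone 54 and 343.0 CPM in clone 69. Its log2 fold change was 1.33 (SE 0.46), and the clone 69 library was only slightly above the parental one. Folr2 (ENSMUSG00000032725, protein-coding, chr7:101839988-101857194, minus strand), the beta folate receptor, was at 35.3 and 24.5 CPM in wild type, 185.7 CPM in clone 54 and 71.0 CPM in clone 69, with a log2 fold change of 2.10 (SE 0.42). Its exons overlap the antisense gene Gm10602, and since the strand setting of the counting is not given, reads of the pair cannot be told apart. Lyve1 (ENSMUSG00000030787, protein-coding, chr7:110850607-110863239, minus strand), a receptor for hyaluronan that also marks lymphatic endothelium, differed in direction. It was at 48.8 and 17.3 CPM in wild type and at 15.45 and 16.8 CPM in clones 54 and 69, a log2 fold change of -1.03 (SE 0.43) in which the vCas9 library was close to both knockouts, and it was -0.10 without the parental library.

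Trem2 (ENSMUSG00000023992, protein-coding, chr17:48346401-48354147, plus strand), the lipid-sensing receptor, was at 22.2 and 28.0 CPM in wild-type Balb/c tumors. It reached 174.8 CPM in clone 54 and 61.7 CPM in clone 69, with a log2 fold change of 2.24 (SE 0.44).

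**Figure D1:**
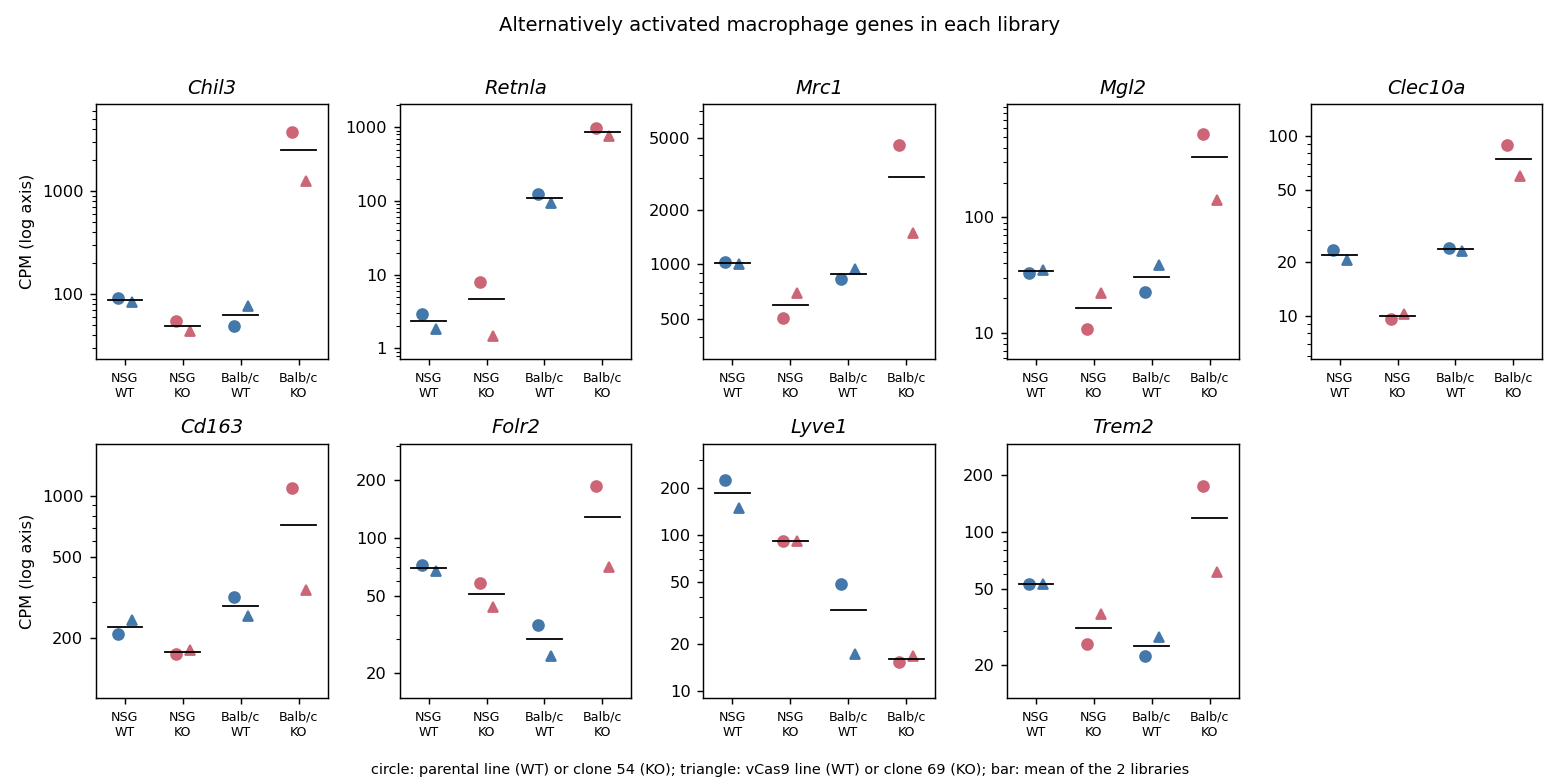
Level of each of the 9 genes in each of the 8 libraries, in CPM on a log axis whose range differs between panels; circles are the parental line or clone 54, triangles the vCas9 line or clone 69, bars the mean of the 2 libraries, blue wild type and red knockout. In Balb/c the knockout points lie above the wild-type points for 8 genes and below them for Lyve1, and the clone 54 circle is above the clone 69 triangle for the same 8 genes.

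With edgeR's quasi-likelihood test and adjustment over 15310 genes, 2 of the 9 passed the threshold of 0.05 in Balb/c, Chil3 and Clec10a, both of which rose. Over all genes 0.176% passed in either direction, 0.0457% as higher and 0.131% as lower. All 9 had an unadjusted p under 0.05, as did 4729 of all genes. The number called moved strongly with the method, since DESeq2 called the 8 genes that were higher, beside 2161 of 14438 genes in all, and the fit without the low-count filter called 7 of them, beside 1774 of 20832. It also moved with the libraries entered. Without the Balb/c clone 69 library, 8 were called, beside 3886 of 15697 genes in all. Leaving out any 1 of the other libraries ended the edgeR call of Clec10a, and that of Chil3 too unless the library was Balb/c clone 54. The range of all-gene calls over these fits is given at the end.

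The 2 clones differed in extent. In the Balb/c tumors, clone 54 had at least 2 times the CPM of clone 69 for 6 of the 9 genes, which held for 5.73% of all genes tested. The ratio of clone 54 to clone 69 was 3.67 for Mgl2, 3.21 for Cd163, 3.06 for Mrc1, 2.94 for Chil3, 2.83 for Trem2 and 2.61 for Folr2. It was 1.49 for Clec10a, 1.30 for Retnla and 0.92 for Lyve1. With clone 69 as the lone Balb/c knockout library, the log2 fold changes were 4.25 for Chil3, 2.11 for Mgl2 and 1.25 for Clec10a. They were then 1.19 for Trem2, 1.15 for Folr2, 0.65 for Mrc1 and 0.15 for Cd163. With clone 54 alone they were 5.91 for Chil3, 4.09 for Mgl2, 1.94 for Clec10a, 2.81 for Trem2, 2.64 for Folr2, 2.37 for Mrc1 and 1.94 for Cd163.

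The second comparison made the same contrast in NSG mice, where 8 of the 9 genes had both knockout libraries below both wild-type libraries. Over all genes 25.8% were lower and 26.7% higher in this way. None of the 9 passed the threshold by edgeR, against 0.0131% of all genes (2 genes). An unadjusted p under 0.05 was found for 2 of the 9 and 2148 of all genes. DESeq2 called 1, Clec10a, as lower in knockout, beside 339 of 14038 genes in all. Markers of other cells differed along with these genes. Epithelial genes, which mark the tumor cells, summed to 1012 and 1216 CPM in NSG wild type and 2348 and 1719 CPM in knockout, and dendritic cell genes to 63.4 and 49.4 CPM against 25.5 and 28.8 CPM. All 5 epithelial genes had positive knockout log2 fold changes in NSG (median 1.25) and 5 of the 6 dendritic cell genes negative ones (median -0.64). By edgeR 0 passed in either list, 3 and 4 had an unadjusted p under 0.05, and DESeq2 called 1 as higher and 2 as lower. The summed level was 1342 and 1683 CPM against 3199 and 1502 CPM for neutrophil genes, 8 of 9 of which were positive, and 4.22 and 9.94 CPM against 33.1 and 27.75 CPM for eosinophil genes, 4 of 5 of which were positive. In these 2 lists 0 passed by edgeR, 1 and 2 had an unadjusted p under 0.05, and DESeq2 called 0 and 1. Most of the eosinophil sum in NSG was Siglecf, at 3.12 and 7.87 CPM in wild type and 29.5 and 23.4 CPM in knockout. Epx had 0 counts in every NSG library, Il5ra 0 to 3 and Prg2 0 to 7, so their direction rests on very few counts. The part of these cells in the NSG differences was not tested.

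Clec10a was at 23.3 and 20.4 CPM in wild type and at 9.63 and 10.2 CPM in knockout, a log2 fold change of -1.14 (SE 0.22). Chil3 was at 91.0 and 83.5 CPM against 53.9 and 43.5 CPM, with a log2 fold change of -0.84 (SE 0.47), so that the gene with the largest difference in Balb/c had a small and opposite one here.

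Mrc1 was at 1031 and 1008 CPM in NSG wild type against 503.3 and 694.3 CPM in knockout (log2 fold change -0.77, SE 0.46). For Mgl2 the levels were 33.3 and 35.4 against 10.8 and 22.0 CPM (-1.06, SE 0.60). Trem2 was at 53.05 and 53.3 CPM in wild type and at 25.8 and 36.8 CPM in knockout (-0.76, SE 0.43). For these 3 genes clone 54 was below clone 69, the reverse of their order in Balb/c. The same held by small margins for Clec10a and Cd163, with ratios of clone 54 to clone 69 of 0.94 and 0.95 in NSG.

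Cd163 was at 207.7 and 243.6 CPM in NSG wild type and at 165.7 and 174.5 CPM in knockout, a log2 fold change of -0.41 (SE 0.46). Folr2 was at 72.5 and 67.9 CPM against 58.5 and 44.1 CPM (-0.45, SE 0.41). Lyve1 was at 223.0 and 148.6 CPM against 90.95 and 91.2 CPM, and its log2 fold change of -1.03 (SE 0.42) was the same to 2 decimals as in Balb/c. Retnla was low throughout, with 42 and 22 counts in the NSG wild-type libraries and 75 and 15 in clones 54 and 69. Its groups overlapped at 2.91 and 1.82 against 8.03 and 1.49 CPM, and the log2 fold change of 0.98 (SE 0.65) became -0.68 without clone 54.

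**Figure D2:**
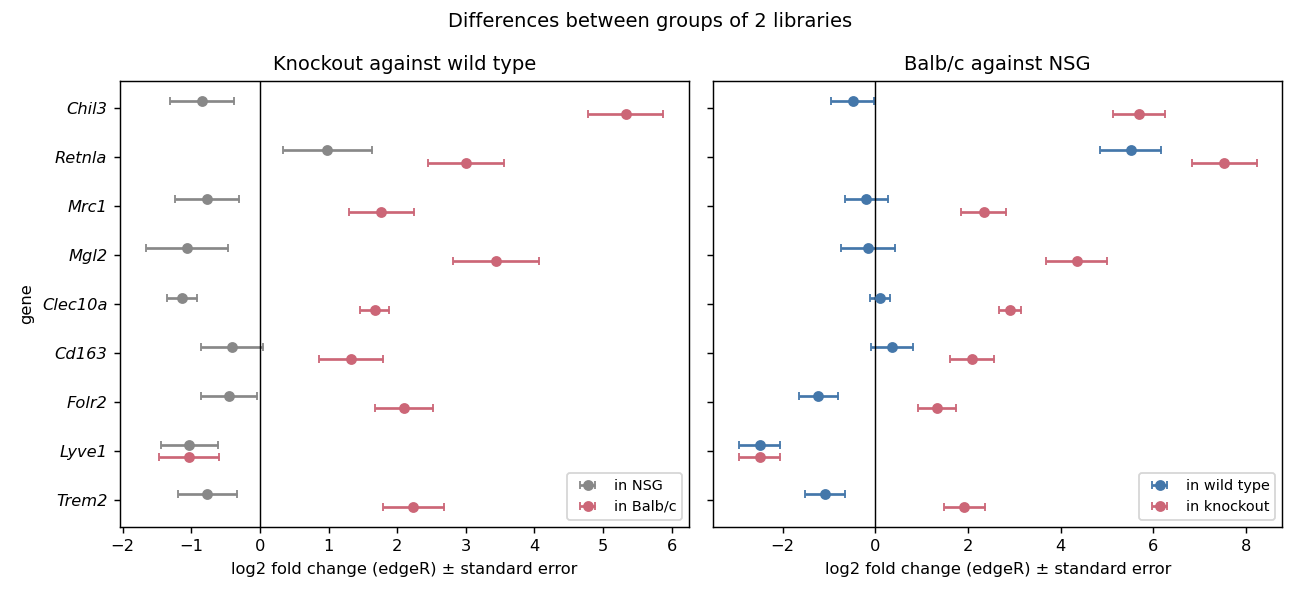
Log2 fold change of each gene from the edgeR fit with its standard error as the bar; left, knockout against wild type in NSG (grey) and Balb/c (red); right, Balb/c against NSG in wild-type (blue) and knockout (red) tumors. Knockout differences lie on opposite sides of 0 in the 2 hosts for all genes but Retnla and Lyve1, and the host difference in knockout tumors is above 0 for all but Lyve1.

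Whether the knockout difference itself depended on the host was fitted as the difference between the 2 within-host log2 fold changes. It was 6.17 (SE 0.70) for Chil3 and 4.50 (SE 0.86) for Mgl2. It lay between 1.73 (Cd163, SE 0.65) and 3.002 (Trem2, SE 0.62) for 6 genes, and was near 0 for Lyve1 (SE 0.54). None of the 9 and 0% of all genes passed the threshold by edgeR, the smallest adjusted p over all genes being 0.0691. An unadjusted p under 0.05 was found for 8 of the 9 and 3452 of all genes, and DESeq2 called 6, beside 968 of 14038 genes in all. Entering the lines as a replicate block left 0 called by edgeR. Without the Balb/c clone 69 library 7 were called, beside 2370 of 15697 genes in all, and without Balb/c clone 54 only Chil3, the 1 gene called there. For 7 of the 9 genes, all but Retnla and Lyve1, both knockout libraries were above wild type in Balb/c and below it in NSG, which held for 9.15% of all genes. The size of the difference rested in part on 1 library. Without Balb/c clone 54 the within-host values were 0.149 (Balb/c) and -0.395 (NSG) for Cd163. They were 0.648 and -0.754 for Mrc1, and 1.194 and -0.751 for Trem2.

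The third comparison set Balb/c against NSG in wild-type tumors. Retnla and Lyve1 differed most, in opposite directions. Without overlap, 2 of the 9 were higher in Balb/c (Retnla and Cd163) and 5 lower (Chil3, Mrc1, Folr2, Lyve1 and Trem2), beside 35.4% and 41% of all genes. Retnla was at 123.2 and 94.7 CPM in Balb/c and at 2.91 and 1.82 CPM in NSG, a 46.0-fold difference of means with a log2 fold change of 5.51 (SE 0.66). Lyve1 was 5.62-fold lower in Balb/c, at 48.8 and 17.3 CPM against 223.0 and 148.6 CPM, with a log2 fold change of -2.50 (SE 0.44). That value was -3.43 without the Balb/c parental library and -1.86 without the Balb/c vCas9 library.

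Those 2 genes passed the threshold of the edgeR test in wild-type tumors, where 31.5% of all genes passed, 15.3% as higher and 16.2% as lower. Of 11 genes that macrophages express in general (named below), 1 was called higher and 3 lower, and 0 passed with the replicate block. Scaling by total counts moved the higher share of all calls from 48.6% to 36.5% and the median over all genes from -0.08 to -0.24 on the log2 scale. Removing Mir6236, a single gene with 0.11% to 5.79% of counts, moved that share to 58.7%. It was 70.8% of 1289 calls without the Balb/c parental library and 73.2% of 1482 without the Balb/c vCas9 library, so that the 15.3% of genes called higher, set beside the lists that follow, rests on these libraries. Total-count scaling also added Folr2 to the genes called as lower, as did the replicate block of cell lines, DESeq2 and the fit without the low-count filter. Without the NSG parental library Lyve1 was no longer called. With either Balb/c knockout library left out, more of all genes were called than in the main fit, Folr2 and Trem2 among them. Folr2 had a log2 fold change of -1.23 (SE 0.41) and Trem2 of -1.08 (SE 0.43). The differences of Chil3 (-0.49, SE 0.46), Mrc1 (-0.20, SE 0.46), Mgl2 (-0.16, SE 0.58) and Cd163 (0.35, SE 0.45) were smaller than their standard errors or close to them. Clec10a differed by 0.10 (SE 0.21), its libraries overlapped between the hosts, and the sign changed between scalings.

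The last comparison set Balb/c against NSG among knockout tumors. Retnla had a 183-fold higher mean in Balb/c than in NSG, Chil3 a 51.2-fold and Mgl2 a 20.3-fold higher one. The other means that were higher in Balb/c differed by 7.49-fold (Clec10a), 5.06-fold (Mrc1), 4.24-fold (Cd163), 3.78-fold (Trem2) and 2.50-fold (Folr2). Lyve1 was 5.65-fold lower, close to its difference in wild type. None of the 9 overlapped between hosts, and over all genes 32.4% were higher and 31.9% lower without overlap.

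The log2 fold changes in knockout tumors were 7.53 (SE 0.70) for Retnla, 5.68 (SE 0.56) for Chil3, 4.34 (SE 0.66) for Mgl2 and -2.50 (SE 0.44) for Lyve1. All 9 genes passed the edgeR threshold, 8 rising and Lyve1 falling, in a comparison where 31.1% of all genes passed, 15.7% as higher and 15.4% as lower. Of 11 genes that macrophages express in general (named below), 8 were also called higher, with a median log2 fold change of 1.63. With the replicate block 3 of these 8 passed. Total-count scaling moved the higher share of all calls from 50.5% to 37.3% and the median of all genes from 0.02 to -0.17, and Folr2 no longer passed. Each clone was grown in both hosts, and when lines were entered as a replicate block 6 passed, without Mrc1, Cd163 and Trem2. Without the NSG clone 54 library the calls of Mrc1, Cd163, Folr2 and Trem2 ended, and without NSG clone 69 those of Cd163, Folr2 and Trem2. The range of all-gene calls over such fits is given at the end. The size of several differences rested on 1 library. For Retnla the log2 fold change was 9.18 without NSG clone 54 and 6.76 without NSG clone 69. Without Balb/c clone 54 it was 4.68 for Chil3, 3.09 for Mgl2, 1.295 for Mrc1, 0.99 for Cd163, 0.95 for Trem2 and 0.445 for Folr2, the last no longer called. Without Balb/c clone 69 it was 4.997 for Mgl2, 2.94 for Mrc1 and 2.70 for Cd163, and without NSG clone 69 it was 4.94 for Mgl2. This comparison shares its libraries with the knockout contrasts above and is no separate evidence for them.

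Most of the genes that macrophages express in general had knockout differences of the same sign as 8 of the 9 genes in each host, all but Lyve1 in Balb/c and all but Retnla in NSG. The summed CPM of 11 pan-macrophage genes (Adgre1, Csf1r, Cd68, Mertk, Fcgr1, C1qa, C1qb, C1qc, Aif1, Cd14 and Lyz2) was 3481 and 3720 in Balb/c wild type, 12140 for clone 54 and 6263 for clone 69. In NSG it was 6322 and 6708 in wild type and 4303 and 3772 in knockout. In Balb/c, 10 of the 11 had a positive knockout log2 fold change (all but Cd14, at -0.75), with a median of 1.36 beside 0.06 for all genes and 2.10 for the 9 alternative activation genes. None passed by edgeR, 11 had an unadjusted p under 0.05, and DESeq2 called 10, of which 9 were higher. In NSG all 11 had a negative one, with a median of -0.88 beside 0.01 for all genes and -0.77 for the 9, and 0 passed by edgeR, 5 at an unadjusted p under 0.05 and 0 by DESeq2. Adgre1, which encodes the macrophage antigen F4/80, had a knockout log2 fold change of 1.26 (edgeR adjusted p = 0.0564, SE 0.21) in Balb/c.

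Expressed as a percentage of that macrophage sum, the 9 genes differed among themselves in Balb/c. Chil3 went from 1.40% and 2.03% in wild type to 30.7% and 20.2% in clones 54 and 69. Mgl2 went from 0.647% and 1.045% to 4.31% and 2.28%. Retnla went from 3.54% and 2.545% to 8.12% and 12.1%, so that here clone 69 was the higher one. These 3 genes thus differed from wild type by more than the macrophage sum did.

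Clec10a (0.683% and 0.6185% against 0.735% and 0.954%), Folr2 (1.015% and 0.6595% against 1.53% and 1.134%) and Trem2 (0.637% and 0.753% against 1.44% and 0.985%) were higher without overlap, by small margins. Mrc1 was at 23.9% and 25.4% in wild type against 37.65% and 23.9% in knockout, and Cd163 at 9.16% and 6.925% against 9.075% and 5.48%, and both overlapped. Lyve1 was lower, at 1.40% and 0.464% against 0.127% and 0.268%. On this scale 6 of the 9 were higher without overlap in Balb/c knockout, beside 0.999% of all genes, and 83.6% of all genes were lower. The sum itself was higher in Balb/c knockout, so that most genes are lower relative to it. The 9 were also selected with the contrasts known, and nothing is read from counts of genes on this scale. The count depends on Cd14, a receptor for bacterial lipopolysaccharide, which was at 1159 and 1206 CPM in wild type and 626.2 and 776.3 CPM in knockout. With Cd14 left out of the sum, a choice made after seeing the data, 4 of the 9 were higher without overlap (Chil3, Retnla, Mgl2 and Trem2), beside 0.346% of all genes. Clec10a (1.024% and 0.915% against 0.775% and 1.089%) and Folr2 (1.522% and 0.976% against 1.614% and 1.295%) then overlapped. Trem2 remained higher by a narrow margin, at 0.955% and 1.114% against 1.519% and 1.125%. Cd163 joined Lyve1 as lower, beside 90.6% of all genes.

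In NSG, the same scale left Clec10a lower in knockout, from 0.368% and 0.304% of the sum to 0.224% and 0.2715%. Cd163 and Folr2 were higher, beside 2.53% of all genes that were lower and 76.7% that were higher. Chil3 overlapped between the groups at 1.439% and 1.245% against 1.253% and 1.152%. Mrc1 overlapped too, at 16.3% and 15.0% against 11.7% and 18.4%. The ratio depends on which macrophage genes are summed, and Lyz2 and Cd14 are also expressed by other myeloid cells.

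**Figure D3:**
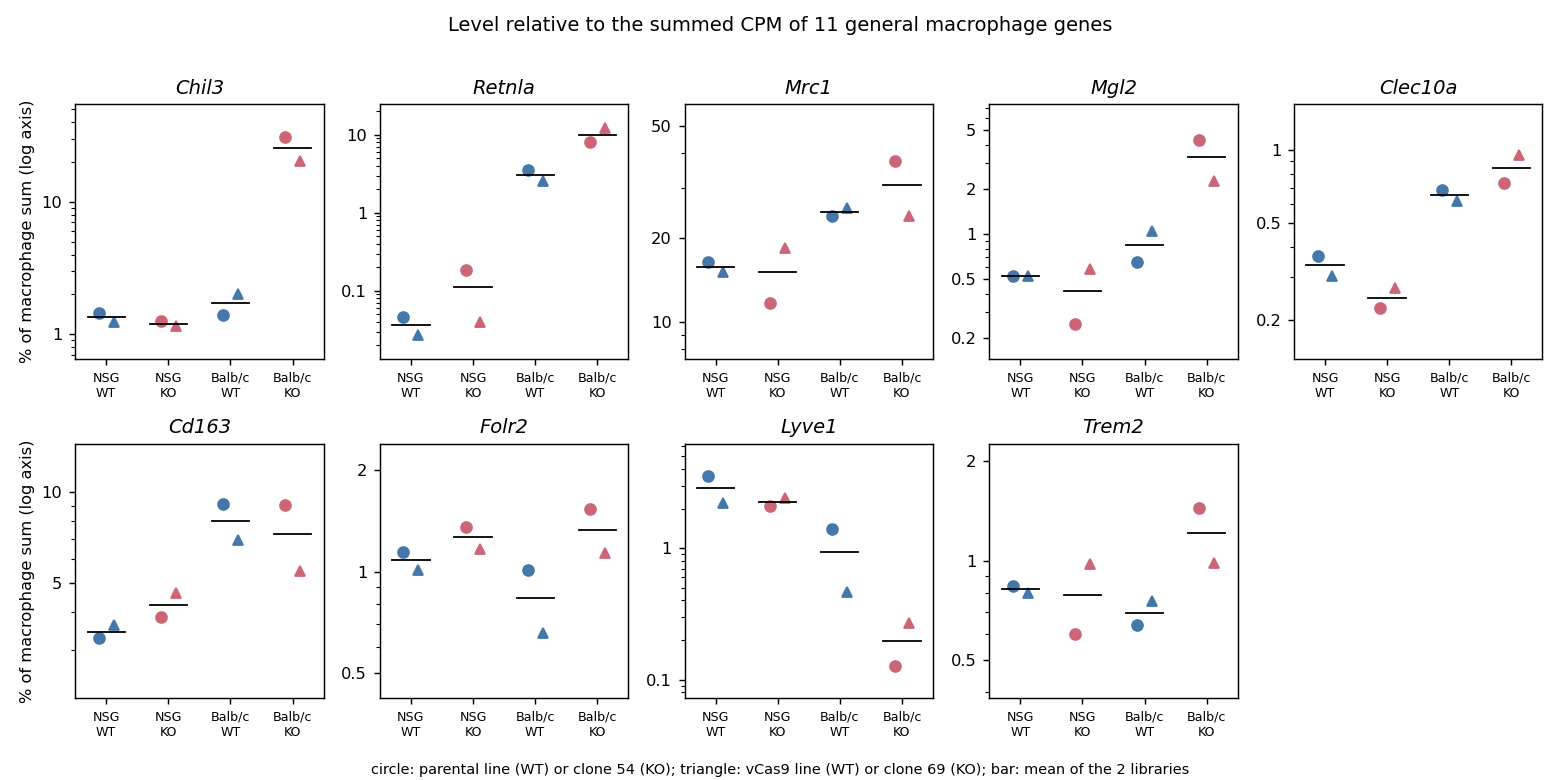
Level of each gene as a percentage of the summed CPM of 11 pan-macrophage genes in the same library, on a log axis whose range differs between panels; symbols and colours as for the levels by library. Chil3 separates Balb/c knockout (30.7% and 20.2%) from all 6 other libraries, and Mrc1 and Cd163 overlap between knockout and wild type in Balb/c.

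The genes of the cytokines IL-4 and IL-13 differed by host. Il4 ranged from 0.43 to 1.45 CPM over the 4 NSG tumors and stood at 16.05 and 20.2 CPM in wild-type Balb/c tumors and 16.4 and 31.5 CPM in Balb/c knockout. It rose in Balb/c by a log2 fold change of 3.78 (edgeR adjusted p = 0.00227, SE 0.46) in wild-type and 4.85 (edgeR adjusted p = 0.000727, SE 0.51) in knockout tumors. Il13 had 3 counts or fewer in every NSG library, and was at 6.03 and 9.56 CPM in wild-type Balb/c tumors and 19.3 and 18.3 CPM in Balb/c knockout, at least 34.2-fold and at least 60.7-fold higher than in NSG against a floor of 3 counts per library. Between knockout and wild type in Balb/c neither passed by edgeR, with a log2 fold change of 1.26 (edgeR adjusted p = 0.0766, SE 0.37) for Il13 and 0.40 (edgeR adjusted p = 0.504, SE 0.39) for Il4. Of these 2 genes 1 had an unadjusted p under 0.05 and 1 was called by DESeq2.

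Among the receptor subunits, Il4ra, the shared chain of both receptor types, was at 333.2 to 409.1 CPM in NSG and 532.1 to 664.9 CPM in Balb/c. It rose in Balb/c by 0.75 (edgeR adjusted p = 0.0308, SE 0.21) on the log2 scale in wild-type and 0.64 (edgeR adjusted p = 0.0496, SE 0.21) in knockout tumors. With the replicate block it passed in neither (edgeR adjusted p = 0.1 and 0.145). Il2rg, the common gamma chain that NSG mice lack in working form, was at 5.82 to 7.49 CPM in NSG and 98.3 to 157.4 CPM in Balb/c, with log2 fold changes of 4.05 (SE 0.22) and 4.29 (SE 0.22). Il13ra1, the partner chain for IL-13, passed in no comparison by edgeR, with log2 fold changes between Balb/c and NSG of 0.26 (SE 0.20) in wild type and -0.43 (SE 0.20) in knockout. For the knockout difference in Balb/c, 0 of the 3 passed by edgeR, 1 had an unadjusted p under 0.05 and 0 were called by DESeq2.

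Of 4 signal transducers, Jak1 and Stat6 rose in Balb/c among wild-type tumors and Stat6 among knockout tumors, where 15.3% and 15.7% of all genes were called higher. Stat6, the transcription factor downstream of IL-4Rα, had log2 fold changes of 0.69 (edgeR adjusted p = 0.021, SE 0.17) and 0.60 (edgeR adjusted p = 0.031, SE 0.17). With the replicate block Jak1 and Stat6 passed in neither genotype. Beside the same shares of all genes, of 5 regulators of alternative activation, Irf4 and Kdm6b rose in Balb/c wild type and Irf4, Klf4 and Pparg in Balb/c knockout, each relative to NSG, and Pparg did not pass with the replicate block (edgeR adjusted p = 0.0518). Irf4, a transcription factor induced by IL-4, had log2 fold changes of 1.81 (edgeR adjusted p = 0.00765, SE 0.33) and 2.13 (edgeR adjusted p = 0.0031, SE 0.33). Between knockout and wild type in Balb/c, 0 of the 4 transducers and 0 of the 5 regulators passed by edgeR. An unadjusted p under 0.05 was found for 0 and 3 of them, and DESeq2 called 0 and 1.

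Other genes that respond to IL-4 and IL-13 (Ccl17, Ccl22, Ccl24, Socs1, Cish, Tgm2, Alox15 and Pdcd1lg2) were mostly higher in Balb/c than in NSG. In wild-type tumors 6 of 8 rose in Balb/c and in knockout tumors 8 of 8, with medians of 1.54 and 2.51 on the log2 scale beside -0.08 and 0.02 for all genes, of which 15.3% and 15.7% were called higher. With the replicate block 4 (without Cish and Tgm2) and 6 (without Ccl17 and Cish) of the 8 passed. Alox15, a lipoxygenase, was at 1.29 to 13.9 CPM in NSG and 212.8 to 705.6 CPM in Balb/c. Its log2 fold change was 4.55 (edgeR adjusted p = 0.00102, SE 0.44) in wild-type and 8.16 (edgeR adjusted p = 0.000238, SE 0.53) in knockout tumors.

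For the knockout difference in Balb/c, 0 of these 8 passed by edgeR, 4 had an unadjusted p under 0.05 and DESeq2 called 2. In NSG the chemokine gene Ccl24 fell, from 25.1 and 19.5 CPM to 3.10 and 4.38 CPM, by a log2 fold change of -2.57 (edgeR adjusted p = 0.0316, SE 0.23). The call ended, with 0 of all genes called, when any 1 of the 4 NSG libraries or either Balb/c knockout library was left out. The other 7 also had negative values and did not pass. The median of the 8 in NSG was -1.38 beside 0.01 for all genes, 5 had an unadjusted p under 0.05 and DESeq2 called 3, all lower. Ccl17, a chemokine gene listed first in this set, in Balb/c was at 2.38 and 3.26 CPM in wild type, 20.9 CPM in clone 54 and 4.96 CPM in clone 69 (log2 fold change 2.20, SE 0.60, edgeR adjusted p = 0.0697).

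**Figure D4:**
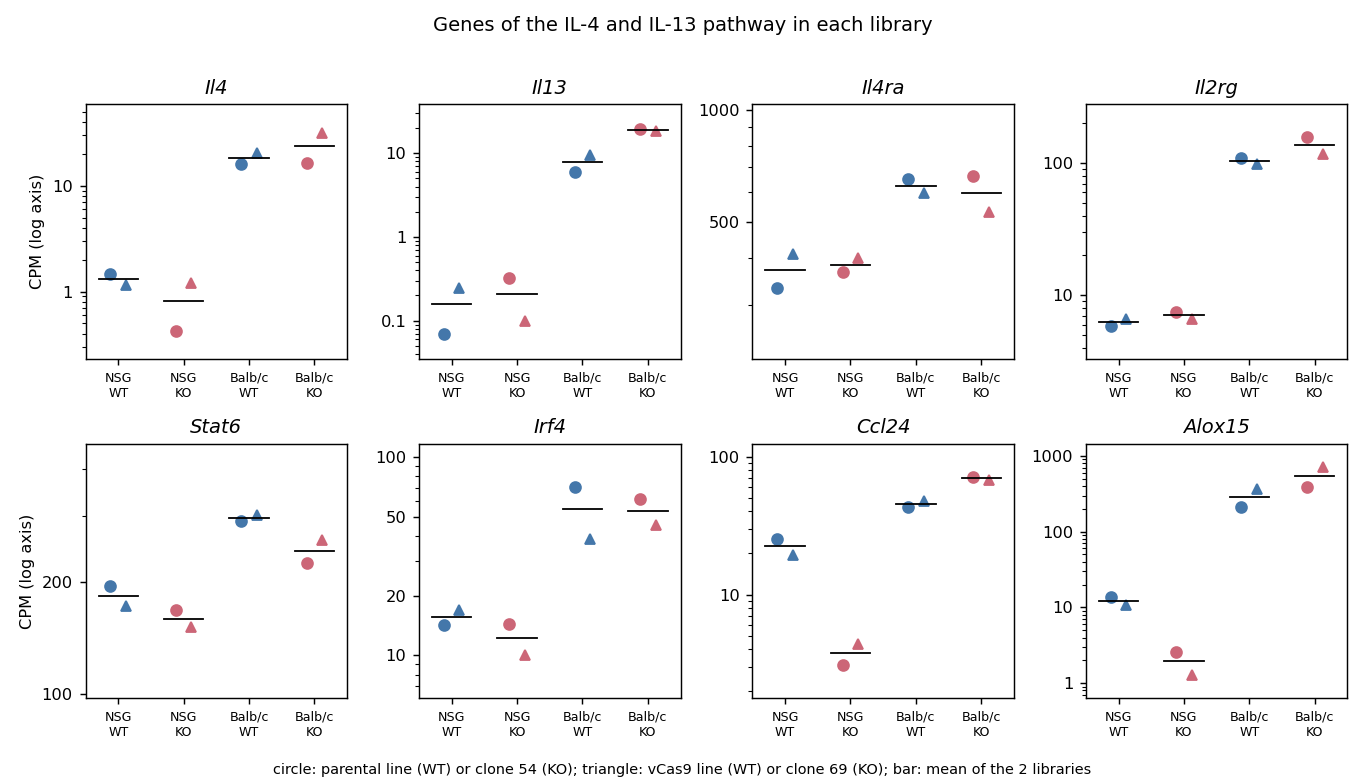
Levels of the ligands Il4 and Il13, the receptor chains Il4ra and Il2rg, the transcription factors Stat6 and Irf4 and the response genes Ccl24 and Alox15 in each library, in CPM on a log axis whose range differs between panels; symbols and colours as for the 9 genes. All 4 Balb/c libraries lie above all 4 NSG libraries in every panel, with Il13 at 6.03 to 19.3 CPM in Balb/c and 3 counts or fewer in each NSG library. The panels are a selection from longer lists, with Stat6, Ccl24 and Alox15 chosen after their values were seen. Not every listed gene separates the hosts. Ccl17, not shown, was at 5.82 and 6.46 CPM in NSG wild type and 2.38 and 3.26 CPM in Balb/c wild type, and Il13ra1 overlapped between the hosts.

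Genes of classical activation, the inflammatory state set against the alternative one, showed no common direction between knockout and wild-type tumors in Balb/c. Of 11 (Nos2, Tnf, Il1b, Il6, Il12b, Cxcl9, Cxcl10, Cd80, Cd86, Irf5 and Ptgs2), 0 passed by edgeR, 4 had an unadjusted p under 0.05 and DESeq2 called 3, of which 1 was higher. Their median log2 fold change was -0.07 beside 0.06 for all genes. Nos2, which encodes inducible nitric oxide synthase, was at 231.4 and 290.0 CPM in wild type and 221.6 and 237.4 CPM in knockout (log2 fold change -0.18, SE 0.32). Against NSG, Nos2, Cxcl9 and Cd80 rose in Balb/c wild type, and 7 of the 11 rose in Balb/c knockout (6 with the replicate block, without Cxcl10), beside 15.3% and 15.7% of all genes called higher. Between knockout and wild type in NSG, 9 of the 11 had negative values with a median of -0.91 beside 0.01 for all genes. There 0 passed by edgeR, 6 had an unadjusted p under 0.05 and DESeq2 called 4, all lower. For the difference between the hosts 10 of the 11 were positive with a median of 0.73 beside 0.03 for all genes, and 0 passed by edgeR, 4 at an unadjusted p under 0.05 and 2 by DESeq2.

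Relatives of the 9 genes were read in the same libraries. Chil1, a chitinase-like gene related to Chil3, was at 197.7 and 152.6 CPM in wild-type Balb/c tumors and 6.45 and 51.8 CPM in clones 54 and 69 (log2 fold change -2.60, SE 0.84, edgeR adjusted p = 0.0928). Chil4, the nearest copy of Chil3, had 0 counts in 6 libraries and 30 and 7 counts in the 2 Balb/c knockout libraries, the libraries in which Chil3 was highest and with which it can share reads. Retnlg, a resistin-like gene of neutrophils, was at 447.0 and 509.5 CPM against 124.2 and 450.9 CPM (-0.73, SE 0.58). Trem1, a receptor of neutrophils and monocytes, was at 696.7 and 695.8 CPM against 113.3 and 393.3 CPM.

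Of the 6 relatives that passed the filter, 0 passed the edgeR threshold for the knockout difference in Balb/c, 2 had an unadjusted p under 0.05 and DESeq2 called 1. Retnlg rose in Balb/c against NSG in both genotypes, and Chil1 and Mrc2 fell in Balb/c against NSG among knockout tumors. With the replicate block only the rise of Retnlg in wild-type tumors passed. Mrc2, a collagen-binding relative of the mannose receptor, was at 49.4 and 31.05 CPM in wild-type Balb/c tumors and 48.5 and 16.0 CPM in knockout. Retn, Retnlb and Folr1 were below 4 CPM in all 8 libraries.

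Compared per length (CPM per kilobase of the longest protein-coding transcript in GENCODE M21), the order of the 9 genes differed between the groups. In NSG wild type Mrc1 was the most abundant (189.7 ± 3.03 CPM per kb, SD, n = 2). It was followed by Lyve1, Folr2, Chil3, Cd163 and Trem2 between 64.2 and 48.9 CPM per kb, where the spread of Lyve1 (SD 18.2) covers its neighbours, and Retnla was last at 3.95 ± 1.28. In Balb/c wild type Retnla (181.8 ± 33.6 CPM per kb) and Mrc1 (165.3 ± 15.0) led and did not differ beyond their spread. In Balb/c knockout the leading genes were Chil3 (1622 ± 1129) and Retnla (1455 ± 270.2), which did not differ beyond their spread, followed by Mrc1 (564.2 ± 404.6). Mgl2 (203.5 ± 164.4), Cd163 (162.5 ± 120.7), Trem2 (108.7 ± 73.5) and Folr2 (106.6 ± 67.4) had overlapping spreads, which reflect the difference between the clones. Within each of the 2 libraries Mgl2 was above Cd163, and Cd163 above Trem2 and Folr2, whose order changed between the clones. Clec10a was at 31.9 ± 8.93, and Lyve1 was last at 5.57 ± 0.33 CPM per kb.

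The genes whose profile over the 8 libraries was most like that of Chil3 and of Mrc1 were sought among 11430 genes with a mean of at least 5 CPM, by the root mean square difference of centred log2(CPM + 0.5). For Chil3 these were Ch25h (0.87), which encodes cholesterol 25-hydroxylase, the chemokine gene Ccl8 (0.99) and the amino acid transporter gene Slc7a2 (1.06), and Mgl2 was nearer still (0.82). For Mrc1 they were the myeloid transcription factor gene Cebpa (0.15), Tlr8 (0.21) and the complement receptor gene C3ar1 (0.22). Ccl8, for example, was at 212.9 and 236.9 CPM in wild-type Balb/c tumors, 2946 CPM in clone 54 and 765.4 CPM in clone 69.

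Markers of other cells that can carry some of these transcripts differed between groups in part. The summed CPM of 9 neutrophil genes was 7408 and 5726 in Balb/c wild type, 424.6 for clone 54 and 2216 for clone 69. All 9 had negative knockout log2 fold changes in Balb/c with a median of -2.44, where 0 passed by edgeR, 7 had an unadjusted p under 0.05 and DESeq2 called 7. The 5 eosinophil genes summed to 4.22 to 33.1 CPM in NSG and 298.6 to 612.9 CPM in Balb/c, and all 5 rose in Balb/c in both genotypes, with Epx, a defining gene, at 0 counts in all NSG libraries. The 6 dendritic cell genes summed to 25.5 to 63.4 CPM in NSG and 99.1 to 236.3 CPM in Balb/c, and 4 and 5 of them rose in Balb/c in wild type and knockout (2 and 5 with the replicate block), beside 15.3% and 15.7% of all genes.

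For the knockout difference in Balb/c, 0 of the 5 eosinophil, 6 dendritic cell, 6 monocyte, 4 tested lymphatic and 5 epithelial genes passed by edgeR. An unadjusted p under 0.05 was found for 1, 2, 3, 1 and 1 of them, and DESeq2 called 1, 2, 1, 0 and 1. The 6 monocyte genes summed to 1090 to 1638 CPM over all 8 libraries. Lymphatic endothelial genes summed to 106.5 to 179.0 CPM, of which Pdpn, also expressed by other cells, gave 85.0 to 167.9 CPM. Flt4, which encodes the lymphatic receptor VEGFR3, was at 4.16 to 19.4 CPM in NSG and 0.93 to 3.02 CPM in Balb/c. It fell in Balb/c in both genotypes, as did Lyve1, by log2 fold changes of -2.24 and -2.08, and passed in neither when lines were entered as a replicate block (edgeR adjusted p = 0.0546 and 0.0703). Other genes of this list did not share that direction. Prox1, at 0.21 to 2.41 CPM, had log2 fold changes between Balb/c and NSG of 1.41 in wild-type and 0.37 in knockout tumors. Those of Reln, at 0.55 to 4.42 CPM, were 1.86 and -0.64, and those of Pdpn -0.12 and 0.22. None of these 3 genes passed by edgeR in either genotype. Ccl21a had 0 counts in 7 libraries and 1 in the other. Epithelial genes summed to 568.7 CPM in the Balb/c clone 54 library and 2848 CPM in the Balb/c clone 69 library, the reverse of the order of those clones for 8 of the 9 genes. The part of neutrophil, eosinophil, dendritic, lymphatic endothelial and epithelial content in the differences of the 9 genes was not tested.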

How the data were processed

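Gene counts were deposited by the authors as 1 file of raw counts per library, with 25006 Ensembl identifiers each, 24942 of which matched a symbol in the table of gene names. Per the submitters' processing notes, cutadapt 1.13, STAR, HTSeq 0.6.1p1 and DESeq2 were used and the builds mm10 and hg19 are named. The annotation, strand setting and filters are not given in the sources used here. Per the labels' protocols, total RNA was isolated with miRNeasy columns, treated with DNase and made into Illumina libraries.

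The 9 genes, the gene lists and the tests were chosen with earlier results of these data known. The model was edgeR 4.0.16 under R 4.3.3 (TMM scaling, filterByExpr, glmQLFit and glmQLFTest) with 4 group means over all 8 libraries, with 4 residual degrees of freedom and a common biological coefficient of variation of 0.244. P-values were adjusted by Benjamini and Hochberg over 15310 genes. SE is the log2 fold change divided by the square root of F. Replicates of a group differed by more than sampling noise, with chi-square values per degree of freedom of 15.0 to 94.3. P-values measure the spread between the 2 libraries of a group, in which line and tumor differ together and cannot be told apart.

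Each line was grown in both hosts, which pairs libraries. The line differences in NSG and Balb/c correlated across genes with r of 0.081 for parental minus vCas9 and -0.384 for clone 54 minus clone 69. The model was fitted without this block, and the block is an alternative. It cannot give the knockout difference within a host, because the lines are nested in genotype. Genes named outside the 9 include the first of each list apart from the monocyte, neutrophil, eosinophil and dendritic cell lists. They also include all ligands, receptors and relatives, the 3 genes most like Chil3 and Mrc1, and the targeted gene. Others, such as Klf4, Pparg, Kdm6b, Cxcl9, Cd80 and Cxcl10, were named as members of a list or for whether they were called. A few genes of the original lists are not reported here. Alox15, Ccl24, Stat6, the epithelial and lymphatic examples and Epx were chosen after their values were seen. The floor of 3 counts equals 0.159 to 0.321 CPM and covers counting error only. Mir6236 took 0.11% to 5.79% of counts. Alternatives were other scalings, no filter, DESeq2 1.42.0, removal of Mir6236, the 4 compared libraries alone, the block and leaving out each library, and, chosen after seeing the data, the macrophage sum without Cd14.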

Additional observations from a re-analysis of the deposited data

Results flagged for a closer look

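For 7 of the 9 genes, both knockout libraries lay above both wild-type libraries in Balb/c and below them in NSG, so that the knockout difference had opposite signs in the 2 hosts. The difference between the within-host log2 fold changes (Balb/c minus NSG) was 6.17 for Chil3, 4.50 for Mgl2, 3.002 for Trem2, 2.81 for Clec10a, 2.56 for Folr2, 2.54 for Mrc1 and 1.73 for Cd163. It was tested in the model of all 8 libraries, where none of the 7 passed the edgeR threshold after adjustment over all genes. The same pattern of libraries held for 9.15% of all genes, and the 7 genes were selected with these contrasts known. No explanation was tested.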

How the results depend on the processing

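Depth did not limit these genes except Retnla in NSG, at 15 to 75 counts. With 2 libraries per group and 4 residual degrees of freedom, counts of calls near the threshold moved widely, and where a library was left out the lone one was assumed to vary like the other groups. The causes of the following changes were not tested. For the Balb/c knockout difference, all-gene calls went from 27 to 94 with RLE size factors, 1774 without the filter (37.1% higher against 25.9%), 2161 with DESeq2 and 0 with only the 4 libraries compared (3468 at an unadjusted p under 0.05), and calls among the 9 from 2 to 7 without the filter, 8 with DESeq2 and 0 with the 4 libraries. For the NSG knockout difference, all-gene calls went from 2 to 133 without the filter (30.8% higher), 339 with DESeq2 (30.7% higher) and 1 with the 4 libraries, and calls among the 9 from 0 to 1 both without the filter and with DESeq2. For wild-type host differences, the replicate block gave 2073 genes instead of 4825, and 3 of the 9 instead of 2. The 4 libraries alone called 6838 of 14632 genes and 4 of the 9. For knockout host differences, 4757 genes became 2450 with the 4 libraries (5 of the 9) and 2878 with the replicate block (6 of the 9). For the difference of knockout effects, 0 genes became 674 without the filter and 968 with DESeq2, and 0 of the 9 became 6 under both. Among the listed genes outside the 9, the replicate block kept 22 of 42 calls between wild-type hosts and 32 of 50 between knockout hosts, and added none. Leaving Cd14 out of the macrophage sum changed the number of the 9 that were lower relative to it in Balb/c from 1 to 2.

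Leaving out 1 library at a time gave 0 to 3886 genes and 0 to 8 of the 9 for the Balb/c knockout, 0 to 1 genes and 0 of the 9 for the NSG knockout, 858 to 6361 genes and 1 to 4 of the 9 for wild-type hosts, 2461 to 4640 genes and 5 to 9 of the 9 for knockout hosts, and 0 to 2370 genes and 0 to 7 of the 9 for the difference. The extremes of the Balb/c knockout and of the difference came without Balb/c clone 69 (3886 and 2370 genes). Signs reversed for these values, all near 0 apart from Retnla (0.98). Clec10a between wild-type hosts became -0.056 with total-count scaling and ran from -0.006 to 0.194 when libraries were left out, and Mgl2 ran from -0.539 to 0.174. Retnla in NSG ran from -0.679 to 1.743. The difference of knockout effects for Lyve1 became 0.143 with the replicate block and ran from -0.649 to 0.936.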
